A study of Homo sapiens with 10 samples.

Results

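PCAT14 and 7 genes around it lie on the long arm of human chromosome 22, between 23145326 and 23768443 in GRCh38. The 8 genes were taken by symbol from the deposited gene count table, which holds 63140 gene identifiers. They are PCAT14, LINC01659 and ZDHHC8BP, whose transcripts were lower after treatment with WA-68, and RAB36, BCR, GUSBP11, ZNF70 and CHCHD10, which flank them. The choice rested on the measured differences between WA-68 and DMSO, so for these 8 genes those differences are given as a description. Calls on them are listed only for the record and are no test. All 8 passed the filter on low counts, as did 16382 genes in all. The annotation used here places 36 genes of the table in the rounded interval that the rule names, and 14 of them passed the filter. The rule took 8 of those 14 and left out RSPH14, FBXW4P1, DRICH1, ASLP1, MMP11 and SMARCB1.

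The RNA came from HS-SY-II, a long-standing line of human synovial sarcoma cells. The treated groups were kept in 100 nM WA-68 for 12, 24, 48 or 96 h, and the control group was kept in DMSO, the vehicle. WA-68 is a PROTAC, a molecule that brings its target protein to an E3 ubiquitin ligase for degradation, and its target is BRD9. Each of the 5 groups had 2 biological replicates, which gave 10 libraries, all from 1 cell line. The labels give no harvest time for DMSO and no vehicle group for each time, so the length of culture and the treatment cannot be told apart in a comparison of 1 time with DMSO.

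BRD9 is a bromodomain protein of the non-canonical BAF complex (ncBAF), a chromatin remodeller that moves nucleosomes at active genes and enhancers. Synovial sarcoma is driven by SS18-SSX, a fusion that takes the place of the BAF subunit SS18, and these tumour cells depend on BRD9. PCAT14 is a long non-coding RNA best known from prostate cancer, transcribed from an endogenous retroviral locus of the HERV-K group. Long non-coding RNAs are often transcribed from retroviral or enhancer-like sequence in a cell-type restricted way, and their levels can be read beside those of coding genes nearby. The band around them also holds BCR, the breakpoint gene that joins ABL1 in chronic myeloid leukaemia, and SMARCB1, a core BAF subunit that ncBAF lacks.

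In map order, RAB36, a small GTPase of membrane traffic, spans 23145326 to 23164350 and BCR spans 23179704 to 23318037, both on the plus strand. ZDHHC8BP, a transcribed pseudogene related to the palmitoyltransferase gene ZDHHC8, spans 23390606 to 23402726 on the minus strand. LINC01659, a long intergenic non-coding RNA, spans 23433564 to 23435071, and PCAT14 spans 23536881 to 23547797, both on the plus strand. GUSBP11, a pseudogene of the beta-glucuronidase gene GUSB, spans 23638487 to 23717356. ZNF70, a zinc-finger protein gene, spans 23738678 to 23751092. CHCHD10, a protein of the mitochondrial intermembrane space, spans 23765834 to 23768443, and these last 3 genes are on the minus strand. From the far end of ZDHHC8BP to the end of PCAT14 is a stretch of 157.2 kb, separated from BCR by 72.6 kb and from GUSBP11 by 90.7 kb. The 3 lower transcripts therefore lie next to each other on the map among the tested genes, and on both strands.

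The RefSeq promoter table (GRCh38.p14), which gives 250 bases before and 50 bases after a gene's start, matched 4 of the 8 genes, namely BCR, LINC01659, ZNF70 and CHCHD10. The windows of LINC01659 and BCR are printed because they set a lower transcript beside the nearest tested coding gene on its far side. Both are on the plus strand, at chr22:23433314-23433613 for LINC01659 and chr22:23180259-23180558 for BCR. Capitals mark GGGCGG (the core of a GC box) and CCAAT, searched on both strands.
LINC01659: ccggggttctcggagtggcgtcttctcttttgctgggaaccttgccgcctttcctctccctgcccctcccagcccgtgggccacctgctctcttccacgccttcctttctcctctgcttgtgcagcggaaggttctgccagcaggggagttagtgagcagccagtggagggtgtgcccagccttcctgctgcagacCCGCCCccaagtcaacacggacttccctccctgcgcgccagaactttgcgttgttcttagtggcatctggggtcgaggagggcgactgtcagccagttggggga
BCR: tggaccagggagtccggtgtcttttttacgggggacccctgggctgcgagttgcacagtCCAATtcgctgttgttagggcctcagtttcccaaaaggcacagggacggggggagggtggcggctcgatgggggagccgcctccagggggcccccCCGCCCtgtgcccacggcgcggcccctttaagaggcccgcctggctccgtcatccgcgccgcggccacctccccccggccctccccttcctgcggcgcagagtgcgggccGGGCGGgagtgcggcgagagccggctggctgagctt

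The LINC01659 window holds 14 CpG dinucleotides and 1 GGGCGG match, at a GC content of 63.0%. The BCR window holds 27 CpG, 2 GGGCGG matches and 1 CCAAT match, at a GC content of 71.7%. Over all 35116 promoter windows of the table the medians are 14 CpG and 58.7% GC, so LINC01659 sits at the median for CpG. GGGCGG occurs in 45.0% of all windows and CCAAT in 34.6%. Neither window holds TATAAA (in 11.5% of all windows), CACGTG (7.26%), TGACGTCA (1.85%), TGANTCA (7.71%) or ATGCAAAT (1.77%). The windows of ZNF70 and CHCHD10 hold 42 and 23 CpG, more than that of LINC01659.

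Assigned counts per library ran from 7349744 to 13200051. Levels are given in CPM, a count relative to its library's size once TMM factors have been applied. Only the pooled levels between BCR and GUSBP11 take no TMM factors. Each log2 fold change comes from edgeR and carries its standard error (SE). Replicates of a group correlated at 0.989 to 0.991 in log2 CPM across genes, which are not independent replicates. The replicates of DMSO and of 96 h differed from each other more than those of the other groups, with a chi-square per gene against counting error of 6.63 and 9.01, against 2.11 to 2.58 at 12, 24 and 48 h. Replicate 2 of DMSO and replicate 2 of 96 h were taken to stand apart, and values without both are given where they matter. The chi-square does not show which of the 2 replicates of a group differs. The BRD9 transcript was not called by edgeR at 12, 24, 48 or 96 h (adjusted p = 0.479, 0.502, 0.29 and 0.0935), and BRD9 protein was not analysed here. All 8 synovial sarcoma markers passed the filter, with summed levels of 1224 to 1373 CPM in WA-68 libraries and 1259 to 1357 CPM in DMSO libraries. None of the 6 leukocyte, 5 endothelial and 4 skeletal muscle markers passed it.

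PCAT14 (ENSG00000280623) had the highest level of the 3 lower transcripts in CPM, which is not scaled by length, and was the one with the largest difference at 12, 24 and 48 h. DMSO libraries held 58.0 and 60.0 CPM. The WA-68 libraries held 9.28 and 10.3 CPM after 12 h, 10.8 and 9.0 after 24 h, 8.9 and 10.1 after 48 h and then 9.36 and 7.44 after 96 h. The WA-68 libraries therefore held 12.6% to 18.3% of the DMSO mean, with no overlap, and the lower level was already there at the earliest time. In raw counts these values rest on 53 to 100 counts in each WA-68 library and on 746 and 508 in DMSO. Against DMSO its log2 fold change was -2.59, -2.58, -2.63 and -2.79 in time order, with the same SE of 0.14 throughout. Ordered from the lowest of the 16382 fold changes, PCAT14 ranked 4, 3, 4 and 7. Without both libraries that stand apart the log2 fold changes were -2.57, -2.56, -2.61 and -2.62. In bulk RNA, fewer cells that express a transcript and less transcript per cell cannot be told apart.

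LINC01659 (ENSG00000234928), whose start lies at -103.3 kb from that of PCAT14 (negative values are at lower coordinates), was lower by less. DMSO libraries held 13.3 and 14.9 CPM. The WA-68 libraries held 5.26 and 6.2 CPM after 12 h, 4.52 and 6.36 after 24 h, 5.43 and 5.43 after 48 h and then 3.84 and 3.37 after 96 h. All 8 WA-68 libraries lay below both DMSO libraries, at 23.9% to 45.1% of the DMSO mean, and the 2 libraries at 96 h were the lowest. The log2 fold changes against DMSO were -1.29 (SE 0.19), -1.34 (SE 0.19), -1.37 (SE 0.20) and -1.94 (SE 0.21). Its ranks from the lowest fold change were 44, 33, 34 and 19. Per kilobase of exon, LINC01659 stood at 5.29 and PCAT14 at 2.0 CPM per kb at 12 h of WA-68, so the shorter transcript had the higher level. In DMSO they stood close together, at 13.0 and 12.0 CPM per kb.

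ZDHHC8BP (ENSG00000133519), at -134.2 kb and on the opposite strand, was the scarcest. DMSO libraries held 3.96 and 6.26 CPM. The WA-68 libraries held 1.23 and 1.15 CPM after 12 h, 1.13 and 1.37 after 24 h, 1.16 and 0.617 after 48 h and then 0.468 and 0.281 after 96 h. No WA-68 library reached the DMSO libraries, and the mean at 96 h was 7.32% of the DMSO mean, against 23.3% at 12 h. The raw counts at 96 h were 5 and 2, and those in DMSO 51 and 53, so the value at 96 h carries a wide counting error. The log2 fold changes against DMSO were -2.05 (SE 0.36), -1.97 (SE 0.35), -2.46 (SE 0.38) and -3.62 (SE 0.45), with ranks of 10, 8, 6 and 4 from the lowest. Leaving out both libraries that stand apart gave -1.73, -1.64, -2.13 and -3.04. Of the 75-base windows in ZDHHC8BP transcripts, 5.12% also occur in the transcript of CCDC188BP, a pseudogene inside its span on the other strand, which had 0 counts in the 8 WA-68 libraries and 1 in DMSO. The gene ZDHHC8, from which the pseudogene takes its name, lies outside the 1 Mb around PCAT14 and was not called at any time (log2 fold change -0.13, -0.30, -0.25 and -0.03, adjusted p = 0.703, 0.246, 0.271 and 0.921).

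**Figure D1:**
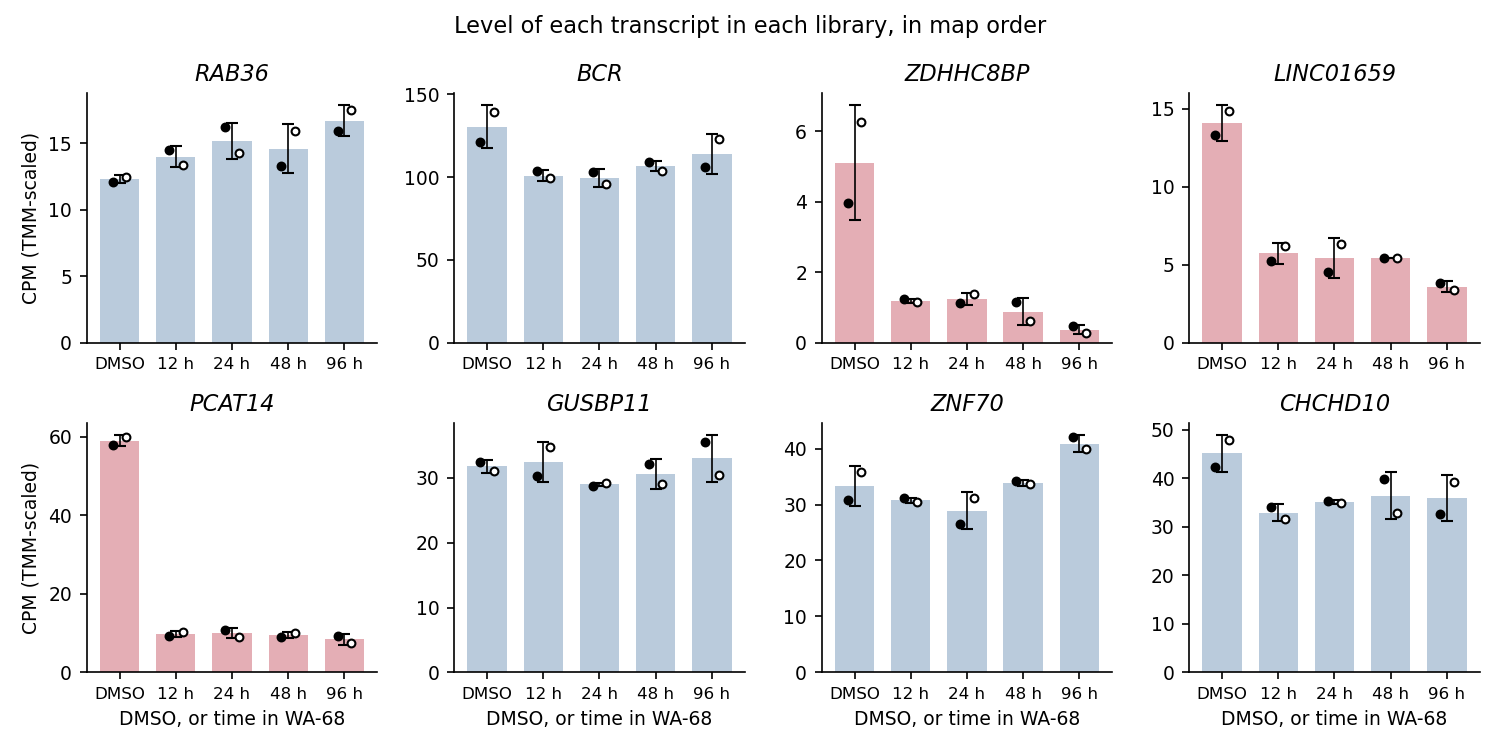
Level of each of the 8 genes in each library, in map order, in TMM-scaled CPM on axes that start at 0; bars are group means, error bars the SD of 2 replicates, filled points replicate 1 and open points replicate 2, with the vehicle at the left and time in WA-68 increasing to the right. In the red panels (ZDHHC8BP, LINC01659 and PCAT14) all 8 WA-68 libraries lie below both DMSO libraries. In the blue panels the groups lie much closer together, though all 8 also lie below both for CHCHD10 and above both for RAB36.

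Over all tested genes, 8.7% had all 8 WA-68 libraries below both DMSO libraries, and 1.02% were called lower at each of the 4 times. PCAT14, LINC01659 and ZDHHC8BP meet both conditions, which follows from how they were chosen and is no further evidence. The comparisons of the 4 times with DMSO share the same 2 DMSO libraries, so the 4 values of a gene are not independent. Over all 18 alternative settings and left-out libraries, PCAT14 stayed between -2.97 and -2.44 and LINC01659 between -2.04 and -1.14 on the log2 scale. ZDHHC8BP stayed between -4.07 and -1.64 over the 17 settings that kept it, since it has too few counts for a filter of 5 CPM. DESeq2 gave it no adjusted p at any of the 4 times, and gave LINC01659 none at 24 h.

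The transcripts that are too scarce to test fill in the map between BCR and GUSBP11. The table holds 16 annotated genes whose spans lie there, of which 4 were tested (ZDHHC8BP, LINC01659, PCAT14 and DRICH1) and 12 were not. Of the 12, 3 had no count in any library, which allows up to 0.0326 CPM over all 10 libraries (3 counts of their summed totals, counting error only). The other 9 had from 1 to 22 counts over the 10 libraries, so they are given as pooled counts, with no test and no fold. Pooled CPM sets the summed counts of a treatment against the summed totals of its libraries, without TMM factors. CES5AP1, a transcribed pseudogene just below ZDHHC8BP, had 3 counts in the 8 WA-68 libraries and 8 in the 2 DMSO libraries, or 0.0429 and 0.363 CPM. FAM230I, a non-coding gene between LINC01659 and PCAT14, had 1 count in WA-68 and 8 in DMSO, or 0.0143 and 0.363 CPM. These were picked as the scarce genes with the widest gap, both lower in WA-68. Their place within or at the edge of the stretch is therefore no further evidence. Inside the stretch, ENSG00000227755 had 8 counts in WA-68 and 4 in DMSO, or 0.114 and 0.182 CPM. LINC02557, also inside, had 3 and 2, or 0.0429 and 0.0908 CPM. LINC02556, outside it near BCR, had 2 and 1, or 0.0286 and 0.0454 CPM. Past the end of PCAT14, ENSG00000224277, at 30.2 kb, had 6 counts in WA-68 and 4 in DMSO, or 0.0858 and 0.182 CPM, and IGLL1, at 43.4 kb, had 1 count in each, or 0.0143 and 0.0454 CPM. Both pooled levels were lower in WA-68, on very few counts. Next to them ENSG00000272733, at 47.0 kb, had 17 counts in WA-68 and 5 in DMSO, or 0.243 and 0.227 CPM. DRICH1, a coding gene at 95.4 kb, had 66 counts in WA-68 and 20 in DMSO, or 0.944 and 0.908 CPM. With TMM factors, DRICH1 averaged 1.0 CPM in DMSO. Its WA-68 means were then 1.14, 0.978, 0.894 and 0.702 CPM at 12, 24, 48 and 96 h. ENSG00000272733 and DRICH1 had nearly the same pooled level in both, although at so few counts a moderate difference was not detectable.

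**Figure D2:**
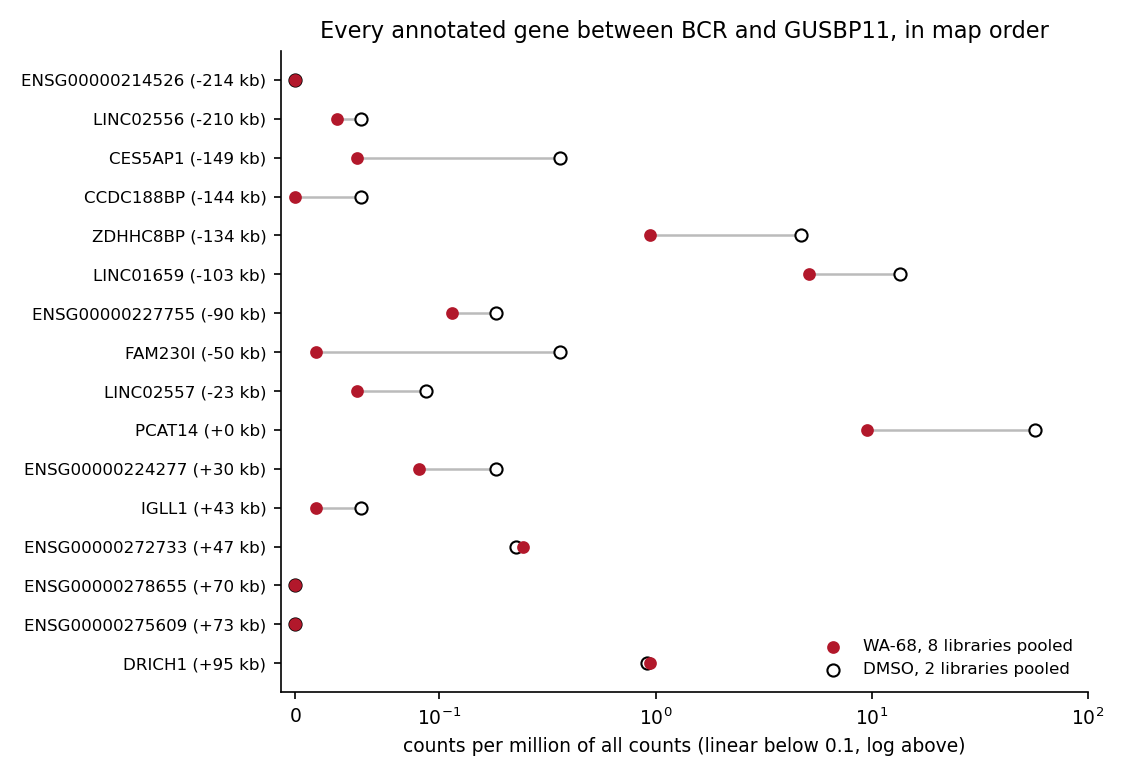
Pooled level of each of the 16 annotated genes between BCR and GUSBP11, in map order, with the distance of its start from that of PCAT14; filled points pool the 8 WA-68 libraries, open points the 2 DMSO libraries, and the axis in CPM is linear below 0.1 and logarithmic above. Pooled CPM takes no TMM factors. The WA-68 points of ZDHHC8BP, LINC01659 and PCAT14 lie to the left of their DMSO points. So do those of most of the untested genes with a count, on very few counts. LINC01659 and PCAT14 stand above all others in both treatments, and DRICH1 and ENSG00000272733 have nearly the same pooled level in both.

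The 5 flanking genes had much smaller differences, and they did not all point the same way. BCR (ENSG00000186716) had 121 and 139.6 CPM in DMSO. It had 104 and 99.3 CPM after 12 h, 103 and 95.7 after 24 h, 109 and 104 after 48 h and then 106 and 123 after 96 h. Of the 8 WA-68 libraries, 7 lay below both DMSO libraries, and replicate 2 of 96 h lay between them. Its log2 fold changes were -0.36, -0.39, -0.29 and -0.19 (SE 0.098 at 12 h), and without both libraries that stand apart they were -0.26, -0.29, -0.18 and -0.19. Without replicate 1 of DMSO they were larger in size, at -0.46, -0.49 and -0.39 at 12, 24 and 48 h. Of its 75-base windows, 9.75% also occur in transcripts of other genes, most often its pseudogene BCRP2.

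RAB36 (ENSG00000100228), on the far side of BCR at -391.6 kb, was higher in WA-68. The WA-68 libraries held from 13.3 to 17.5 CPM with a median of 15.2, and DMSO libraries held 12.1 and 12.5 CPM. All 8 WA-68 libraries lay above both DMSO libraries, a pattern shared by 7.2% of all tested genes. The log2 fold changes were 0.19, 0.30, 0.24 and 0.44, all with the same SE, 0.15.

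CHCHD10 (ENSG00000250479), at 231.6 kb, was lower in all 8 WA-68 libraries than in both DMSO libraries, a pattern shared by 8.7% of all tested genes. DMSO libraries held 42.4 and 47.8 CPM. The WA-68 libraries held 34.1 and 31.6 CPM after 12 h, 35.4 and 34.8 after 24 h, 39.9 and 32.9 after 48 h and then 32.6 and 39.3 after 96 h. The gap to the lower DMSO library was small at 48 h. Its log2 fold changes were -0.45, -0.35, -0.30 and -0.33, all with the same SE, 0.12. The start of CHCHD10 overlaps that of MMP11 on the other strand, and 9.88% of its 75-base windows also occur in MMP11 transcripts. The strand setting of the counting is not given in the sources used here, so reads from the overlap cannot be told apart.

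GUSBP11 (ENSG00000228315) ran from 28.8 to 35.6 CPM in the WA-68 libraries, on both sides of the 32.5 and 31.1 CPM in DMSO. Its log2 fold changes were 0.03, -0.14, -0.06 and 0.06, all with the same SE, 0.12. Of its 75-base windows, 90.4% also occur in transcripts of other genes, most often RGL4, so its level is uncertain where reads could be split. ZNF70 (ENSG00000187792) had 30.9 and 35.8 CPM in DMSO. It had 31.1 and 30.4 CPM after 12 h, 26.5 and 31.2 after 24 h, 34.3 and 33.6 after 48 h and then 42.0 and 39.9 after 96 h. Both libraries at 96 h lay above both DMSO libraries, and those at 24 h did not. Its log2 fold changes against DMSO were -0.11, -0.19, 0.03 and 0.31.

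Because the listed genes were chosen on these values, their calls against DMSO are given only for the record. Neither the calls nor the median of the 8 can be read as an excess over all genes. At 12 h edgeR called 0 of the 8 higher and 5 lower, while it called 3.15% of all tested genes, with 1.92% called lower. At 24 h it called 0 higher and 4 lower, beside 3.6% of all genes and 2.25% lower. The 48 h comparison gave 0 higher and 3 lower, beside 9.39% of all genes and 5.38% lower. The 96 h comparison again gave 0 higher and 3 lower, beside 13.0% of all genes and 6.86% lower. The 3 called at each time were PCAT14, LINC01659 and ZDHHC8BP, joined by BCR at 12 and 24 h and by CHCHD10 at 12 h. The replicate block lost BCR at 12 h, DESeq2 lost CHCHD10 at 12 h, and library size only lost both genes at 12 h and BCR at 24 h. The count of 0 higher at 96 h depends on the setting too, since RAB36 was called higher there with RLE scaling and with the stricter filter, and RAB36 and ZNF70 with library size only. ZNF70 was also called higher at 96 h without replicate 2 of DMSO. The median log2 fold change of the 8 genes was -0.40, -0.37, -0.29 and -0.26, beside -0.002, -0.001, -0.007 and -0.008 over all tested genes.

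The other tested genes around PCAT14 were then taken by position. Within 1 Mb either side of its start the annotation places 141 genes of the table, of which 56 had a count and 26 were tested. Of these, 18 are not among the 8 listed genes. The listed genes had been taken on their differences from DMSO, BCR and CHCHD10 among them, so the counts for the other 18 follow in part from that choice. edgeR (adjusted p under 0.05 over all 16382 genes) called 0 of the 18 at 12 h, where 0 had an unadjusted p under 0.05 and DESeq2 called 0. At 24 h it called 0, where 1 had an unadjusted p under 0.05 and DESeq2 called 0. DESeq2 gave 9 of the 18 no adjusted p at 12 h and 9 at 24 h, so its count covers only the rest. At 48 h edgeR called 2, both lower, and at 96 h it called 2 higher and 1 lower. Over all tested genes the share called was 3.15%, 3.6%, 9.39% and 13.0% in time order, and the counts among the 18 are near these shares, so they are not a result about the neighbours. At 12 h their log2 fold changes ran from -0.37 to 0.32. Their median log2 fold change was -0.10 at 12 h, -0.07 at 24 h, -0.15 at 48 h and -0.07 at 96 h. Counting the listed genes other than PCAT14 as well, 4, 3, 4 and 5 of 25 were called at 12, 24, 48 and 96 h. With starts within 500 kb in place of 1 Mb, the same counts came from 22 genes. Of the genes called, 4, 3, 2 and 2 were listed genes taken on these same differences. The counts that include them are therefore no evidence about the neighbourhood.

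By distance of their starts, the nearest tested genes on either side of the 3 lower transcripts were not called. BCR, whose start is farther away at -357.2 kb, ends nearer, with a gap of 72.6 kb to ZDHHC8BP. As given above, edgeR called BCR lower at 12 and 24 h, but BCR was chosen with these values known, so those calls are no test. DRICH1, at 95.4 kb, had 1.01 and 1.26 CPM at 12 h of WA-68 and 0.843 and 0.561 CPM at 96 h, against 0.699 and 1.3 CPM in DMSO. Its values overlapped DMSO at 12 h, and its log2 fold changes ran from 0.26 at 12 h (SE 0.47, edgeR adjusted p = 0.854) to -0.37 at 96 h (SE 0.52, adjusted p = 0.70). ASLP1, a pseudogene at 116.5 kb, had 3.69 and 2.76 CPM at 12 h, against 2.64 and 2.48 CPM in DMSO, and was not called (0.32, SE 0.29, adjusted p = 0.648). Its libraries at 12 h lay above those of DMSO, opposite to PCAT14. On the other side FBXW4P1, a pseudogene at -274.1 kb inside the span of BCR, had 3.58 and 2.99 CPM at 12 h, against 3.89 and 3.07 CPM in DMSO. It was not called either (-0.11, SE 0.29, adjusted p = 0.908). At 48 h FBXW4P1 had 2.43 and 1.73 CPM, both below DMSO, and still missed the threshold (-0.76, SE 0.32, unadjusted p = 0.0278, edgeR adjusted p = 0.156). DRICH1, ASLP1 and FBXW4P1 are scarce, and an SE of 0.29 or more leaves changes well under that of PCAT14 undetectable.

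**Figure D3:**
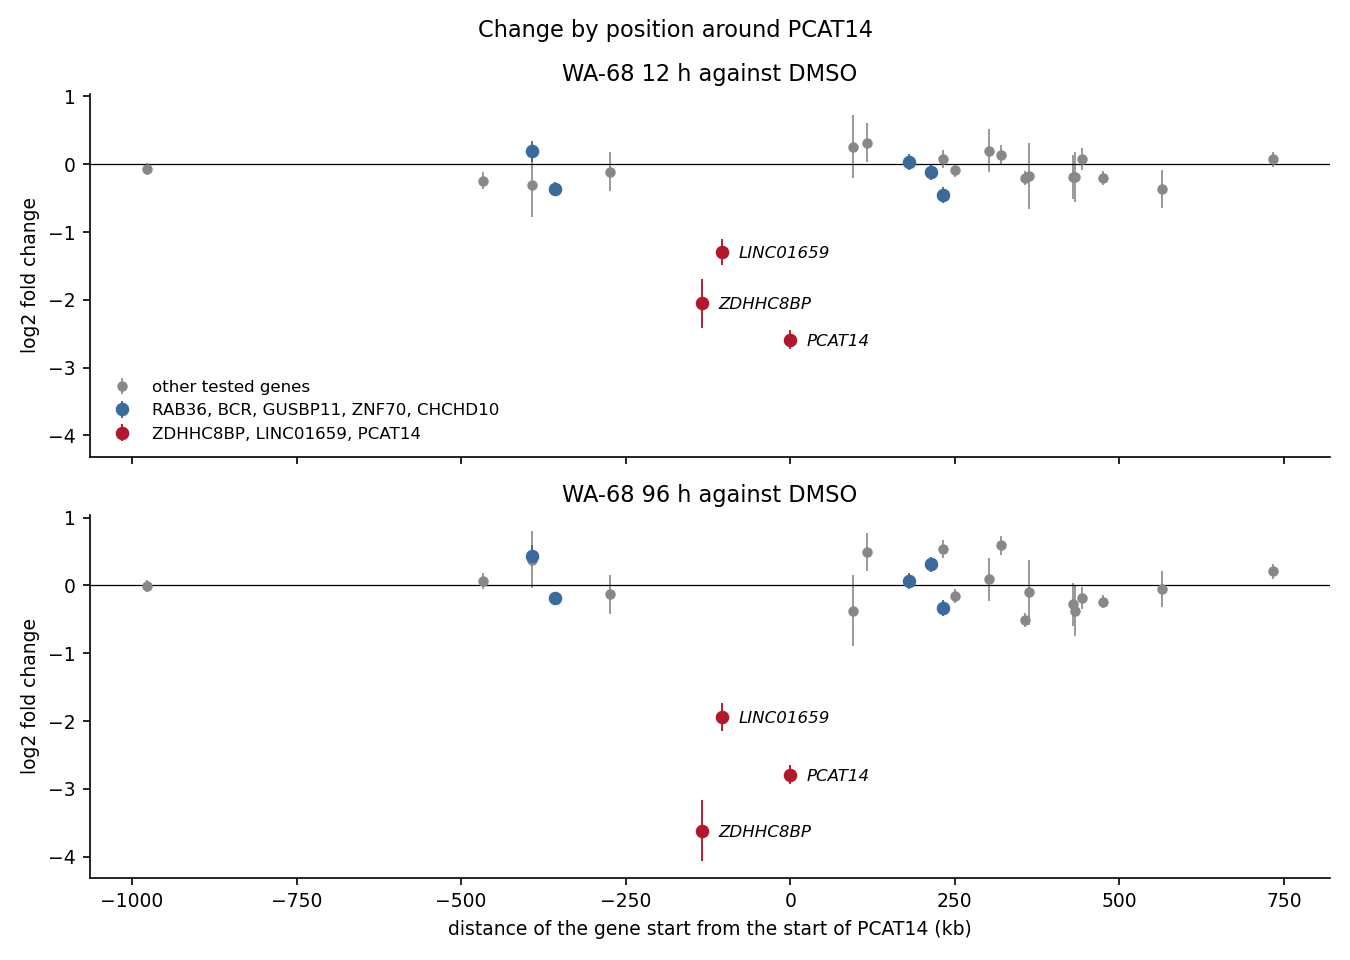
Log2 fold change of each tested gene within 1 Mb of PCAT14 at 12 h (upper panel) and 96 h (lower panel) of WA-68 against DMSO, by the distance of its start from that of PCAT14 in kb; error bars are SE. ZDHHC8BP, LINC01659 and PCAT14 (red) lie between -1.29 and -2.59 at 12 h and between -1.94 and -3.62 at 96 h, and the other genes lie between -0.51 and 0.59 in both panels.

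SMARCB1, the BAF core subunit at 250 kb, had 87.4 and 85.7 CPM at 48 h, against 99.3 and 118 CPM in DMSO. It was called lower at 48 h (log2 fold change -0.32, SE 0.10, edgeR adjusted p = 0.0494), just past the threshold. The adjusted p was 0.0594 with a replicate block, 0.0794 with DESeq2 and 0.139 without both libraries that stand apart, and it ran from 0.00676 to 0.301 when single libraries were left out. The call was lost without replicate 2 of DMSO and without either library of 12, 24 or 48 h. MIF, a secreted cytokine at 357.1 kb, had 86.2 and 80.1 CPM at 48 h and 76.0 and 86.6 CPM at 96 h, against 106 and 125 CPM in DMSO. The libraries at both times lay below DMSO, and MIF was called lower at 48 h (-0.47, SE 0.10, adjusted p = 0.004) and at 96 h (-0.51, SE 0.10, adjusted p = 0.0012). Without replicate 2 of 48 h the first of these calls was lost (adjusted p = 0.104).

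MMP11, a matrix metalloproteinase at 231.3 kb whose start overlaps that of CHCHD10, had 40.2 and 35.5 CPM at 96 h, against 22.8 and 30.0 CPM in DMSO. It rose at 96 h (log2 fold change 0.54, SE 0.13, edgeR adjusted p = 0.00606), a call lost without replicate 1 of DMSO (adjusted p = 0.127) or replicate 1 of 96 h (adjusted p = 0.0656). SLC2A11, a sugar transporter at 319.8 kb, had 20.7 and 19.4 CPM at 96 h, against 13.1 and 13.7 CPM in DMSO. It rose at 96 h (0.59, SE 0.14, adjusted p = 0.00448) and kept the call without each single library. These 4 genes lie on the GUSBP11 side, beyond ZNF70, and 2 rose while 2 fell.

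Comparisons between WA-68 times set no group against DMSO, and the rule did not use them, so here the 8 genes were tested. The DMSO libraries still enter the shared estimate of spread. For 24 h against 12 h edgeR called 0 of the 8 and 0.0% of all genes, 0 of the 8 had an unadjusted p under 0.05, and DESeq2 called 0. For 48 h against 24 h edgeR called 0 of the 8 and 0.757% of all genes, and 0 of the 8 had an unadjusted p under 0.05. DESeq2, which gave 4 of the 8 no adjusted p there, called 0. For 96 h against 48 h edgeR called 0 of the 8 and 0.0366% of all genes, 2 of the 8 had an unadjusted p under 0.05, and DESeq2, which gave none of the 8 an adjusted p there, called 0. For 96 h against 12 h edgeR called 1 of the 8, ZNF70, which was higher, and 4.13% of all genes, with 2.39% called higher. There 3 of the 8 had an unadjusted p under 0.05, and DESeq2, which gave 1 of the 8 no adjusted p, called 0.

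PCAT14 showed no change among the WA-68 times that edgeR could detect. Its log2 fold change was 0.00 at 24 h against 12 h (SE 0.17, edgeR adjusted p = 0.999), and -0.20 at 96 h against 12 h (SE 0.18, adjusted p = 0.594). LINC01659 and ZDHHC8BP were lower again at 96 h, but neither difference passed the test. LINC01659 averaged 3.60 ± 0.333 CPM at 96 h and 5.73 ± 0.671 CPM at 12 h (SD, n = 2), a log2 fold change of -0.65 (SE 0.25, edgeR adjusted p = 0.151). ZDHHC8BP averaged 0.374 ± 0.133 CPM at 96 h and 1.19 ± 0.0573 CPM at 12 h (SD, n = 2), a log2 fold change of -1.57 (SE 0.61, edgeR adjusted p = 0.16). In both, each library of 96 h was below each library of 12 h. The share of all tested genes with that order was not counted, so it adds nothing to the test. Whether ZDHHC8BP or LINC01659 changed more than PCAT14 over these times was not tested.

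ZNF70 was the only one of the 8 called between times, higher at 96 h than at 12 h. It held 42.0 and 39.9 CPM at 96 h and 31.1 and 30.4 CPM at 12 h (log2 fold change 0.42, SE 0.12, edgeR adjusted p = 0.0417). The call was lost with a replicate block (adjusted p = 0.0505), with DESeq2 (adjusted p = 0.0889) and whenever 1 WA-68 library, whichever of the 8, was removed. RAB36 (0.25, adjusted p = 0.40), BCR (0.17, adjusted p = 0.395), GUSBP11 (0.03, adjusted p = 0.916) and CHCHD10 (0.12, adjusted p = 0.664) did not pass the edgeR test between 96 and 12 h. Of the 18 other genes near PCAT14, edgeR called MMP11 in this comparison (0.47, adjusted p = 0.0451), and DESeq2 did not.

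**Figure D4:**
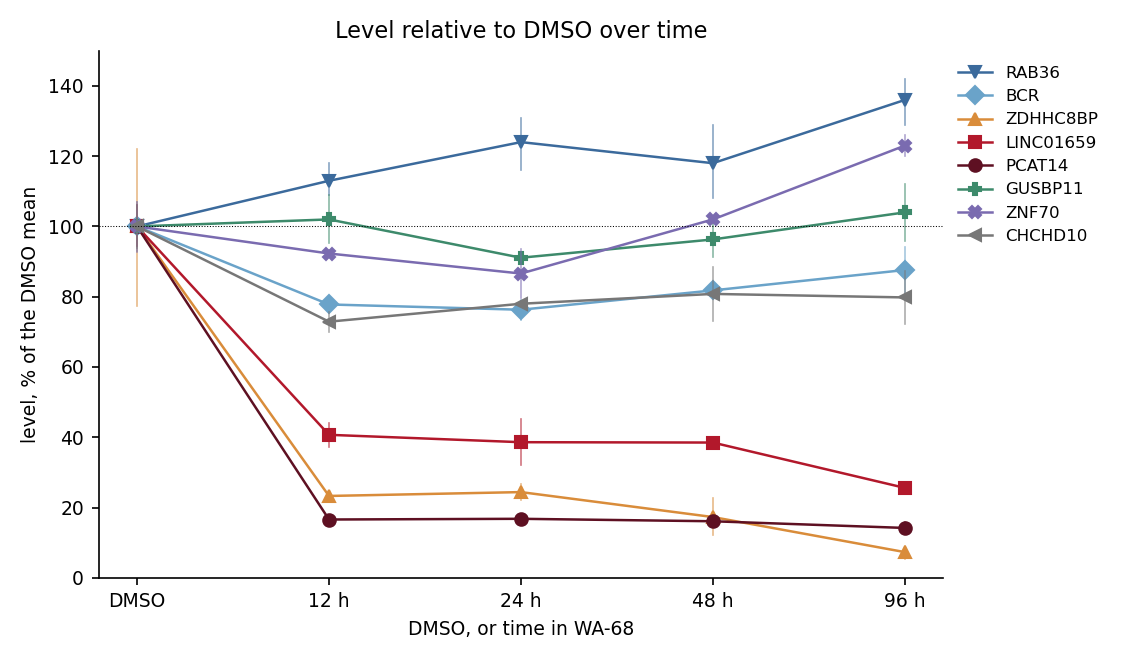
Mean level of each of the 8 genes as a percentage of its DMSO mean, with the vehicle at the left and time in WA-68 increasing to the right; vertical lines join the 2 replicates. PCAT14 lies at 16.6%, 16.8%, 16.1% and 14.2% at the 4 times and ZDHHC8BP at 23.3% and 7.32% at 12 and 96 h, while the 5 flanking genes lie between 72.9% and 136%.

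Likeness of pattern was measured as the root mean square difference over the 5 group means of log2 CPM, each gene centred on its own mean, among 11433 genes of at least 5 CPM. The genes most like PCAT14 were CCDC26, another long non-coding RNA (0.284), the neuronal membrane protein gene SEZ6 (0.374), KIRREL3, which encodes an adhesion molecule (0.393), LINC01659 (0.488) and PKDCC, which encodes a secreted kinase (0.498). LINC01659 was the only gene of chromosome 22 among these 5. Both it and PCAT14 had been chosen for their gap to DMSO, so its place is no further evidence, and ZDHHC8BP was too scarce to be ranked. CCDC26 held from 3.18 to 7.65 CPM in WA-68 libraries, against 29.3 and 25.1 CPM in DMSO. The genes most like LINC01659 were DDN, a protein of dendrites (0.095), the ion channel subunit ASIC4 (0.116) and DDIT4, an inhibitor of mTORC1 (0.137). DDN held from 5.52 to 9.82 CPM in WA-68 libraries, against 18.7 and 18.3 CPM in DMSO. All 5 group means enter this measure, so it largely reflects the size of the gap to DMSO.

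PCAT14 was also set beside other transcripts of its name and kind. Of 7 other long non-coding RNAs with a PCAT number, 2 passed the filter and edgeR called 0 at each time against DMSO, too few genes to set against the 3.15% to 13.0% of all genes called. At 12 h 1 of them had an unadjusted p under 0.05, and at the later times 0 did. DESeq2, which gave 1 of the 2 no adjusted p at each time, called 0 throughout. PCAT7 held from 24.6 to 33.6 CPM in WA-68 libraries, against 29.3 and 32.2 CPM in DMSO. PCAT6 was scarce, with a mean of 0.907 CPM at 12 h and 2.29 CPM at 96 h, against 1.47 CPM in DMSO. Of 14 loci named as endogenous retroviruses, 6 passed the filter. At 12 and 24 h edgeR called 0 of the 6, of which 0 and 1 had an unadjusted p under 0.05. DESeq2 also called 0 at these times, but gave 1 of the 6 no adjusted p at 12 h and 3 at 24 h. At 48 and 96 h edgeR called 1 of the 6. That 1 was ERVK13-1, of the HERV-K group, which rose and so moved opposite to PCAT14. It held 54.9 and 55.9 CPM at 48 h and 58.3 and 58.5 CPM at 96 h, against 44.9 and 44.2 CPM in DMSO (log2 fold change 0.31 and 0.39, SE 0.096, edgeR adjusted p = 0.0415 and 0.0074). The 48 h call was lost with DESeq2 (adjusted p = 0.086), with a replicate block (0.056), with no filter on low counts, with the 4 libraries compared alone and without any 1 of the DMSO, 12 h, 24 h and 48 h libraries, and the 96 h call held without each library but was lost when only the 4 libraries compared were fitted. Of all tested genes 9.39% were called at 48 h and 13.0% at 96 h, so 1 of 6 is near the share over all genes. Among the relatives of the flanking genes, GUSB and ABR (a relative of BCR) were not called against DMSO at any time. CHCHD2, the paralog of CHCHD10, fell at 96 h to 113 and 103 CPM, against 146 and 143 CPM in DMSO (-0.42, SE 0.091, edgeR adjusted p = 0.00281). At 12 h CHCHD2 held 152 and 152 CPM (0.07, adjusted p = 0.774), while CHCHD10 already stood at 34.1 and 31.6 CPM.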

How the data were processed

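Gene counts from poly(A) RNA of 10 libraries (5 groups of 2) were analysed. Per the submitters' processing notes, the tools named are bcl2fastq, FastQC, Trim Galore, cutadapt, STAR and featureCounts, with GRCh38. The authors deposited raw, whole-number counts per gene with no normalization, and every column was used. How reads with several alignments were counted, the strand setting, the annotation release and all tool versions are each not given in the sources used.

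Symbols, positions and exon lengths came from GENCODE 29, which places 58126 of the 63140 identifiers, and the rest could not be assigned to a window. edgeR 4.0.16 under R 4.3.3 was run with filterByExpr by group (16382 genes kept), TMM scaling and 1 mean per group over all 10 libraries, with a quasi-likelihood F test. Residual degrees of freedom were 5 and prior degrees of freedom 18.5, and the common coefficient of biological variation was 7.17%. Calls are at a Benjamini-Hochberg adjusted p under 0.05 over all tested genes. The SE is the size of the log2 fold change divided by the root of F. The script was tested on simulated counts.

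The genes described, the lists, the window of 1 Mb, the naming rule and the alternatives were chosen with earlier results of these data known. Named beside the 8 genes are those called within 1 Mb of PCAT14, the nearest tested ones, SMARCB1, BRD9, relatives, PCAT-numbered and retroviral loci, and the most alike genes. Alternatives were RLE factors, library size only, no filter, 5 CPM in at least 2 libraries, DESeq2 1.42.0, the 4 libraries compared alone, a replicate block, a window of 500 kb, each library left out and both libraries that stand apart left out. Sequences are from RefSeq.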

Additional observations from a re-analysis of the deposited data

Results flagged for a closer look

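Between 96 h and 12 h of WA-68, ZNF70 differed by a log2 fold change of 0.42, which a direct test between those times called (edgeR adjusted p = 0.0417, over left-out libraries 0.0143 to 0.24). MMP11 differed by 0.47 in the same test (adjusted p = 0.0451, over left-out libraries 0.0101 to 0.284). Both were higher in each of the 2 libraries at 96 h than in either library at 12 h, and the share of all tested genes with that order was not counted. The ZNF70 call was lost without any 1 of the 8 WA-68 libraries, and the MMP11 call without either library of 12 or 24 h, replicate 1 of 48 h or replicate 1 of 96 h. Without either library of DMSO both calls held, and with both libraries that stand apart left out the log2 fold changes were 0.46 for ZNF70 and 0.55 for MMP11 (adjusted p = 0.00913 and 0.00235).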

How the results depend on the processing

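With 2 libraries a group, the counts of called genes among the 25 near PCAT14 depend on the setting. The 25 include the listed genes other than PCAT14, which were chosen on their differences from DMSO. The counts against DMSO therefore show only how calls depend on processing. At 12 h the main count of 4 became 2 with library size only and 2 with DESeq2. At 24 h the count of 3 became 1 with DESeq2. At 48 h the count of 4 became 2 with the stricter filter and 2 with DESeq2. For 96 h against 12 h the count of 2 became 0 with library size only, 0 with a replicate block, 0 with DESeq2 and 4 with both libraries that stand apart left out. DESeq2 left some of these genes without an adjusted p, and the other causes were not tested. Leaving out each library in turn gave 2 to 4 at 12 h, 2 to 5 at 24 h, 2 to 6 at 48 h, 4 to 6 at 96 h and 0 to 4 for 96 h against 12 h, and 0 throughout for the other 3 comparisons between times. The calls of BCR and CHCHD10 at 12 h were lost without replicate 2 of DMSO, without either library of 12 h and without either of 24 h, and that of BCR also without either of 48 h, with the 4 libraries compared alone and with both libraries that stand apart left out. The call of BCR at 24 h was lost with library size only, with the 4 libraries compared alone, without replicate 2 of DMSO and without either library of 12 or 24 h.

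For 96 h against 12 h, GUSBP11 (main value 0.03) ran from -0.09 to 0.14 over left-out libraries, with -0.06 without replicate 1 of 12 h, and CHCHD10 (main value 0.12) ran from -0.01 to 0.26, and was -0.005 with both libraries that stand apart left out. None of these passed a test. Of 823 values of named genes under alternatives, 753 kept their direction and side of the threshold or moved by less than the spread between replicates. A further 29 moved by more, 37 lost a call and 4, all for 96 h against 12 h, were counted as changed in sign. Small changes of sign against DMSO were counted among the 753. Over left-out libraries GUSBP11 ran from -0.07 to 0.13 at 12 h against DMSO (main value 0.03). At 48 h against DMSO it ran from -0.14 to 0.03 (main value -0.06). No clear pairing of the libraries by replicate number was seen, since the correlation of deviations ran from -0.123 to 0.186 over 10 pairs of groups. The 1 value over 0.1 was that of DMSO with 96 h. Low correlations cannot exclude a pairing. The replicate block gave 3, 3, 3 and 5 called genes at 12, 24, 48 and 96 h against DMSO. At this depth genes of a few CPM or less have wide errors.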
